A study of Mus musculus with 4 samples.

Results

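The midline thalamus was examined as the Visium spots with the highest score over 6 genes taken as its markers. In each section, spots with at least 500 unique molecular identifiers (UMIs) and 250 genes were scored by the mean of the natural logarithm of 1 plus UMIs per 10000 over Calb2, Gbx2, Slitrk6, Grid2ip, Oprm1 and Lhx9, and the 180 highest were kept, which gave 720 member spots out of 13452. The 4 coronal brain sections (5 μm, formalin-fixed and paraffin-embedded) came from male wild-type C57BL/6J offspring at postnatal day 21. Their mothers received a folic acid (FA) diet of 2 mg/kg (MF group, 2 sections) or 20 mg/kg (HF group, 2 sections) for 2 weeks before mating and through pregnancy and lactation. Each section came from a separate biological replicate and was treated as 1 replicate. Visium-FFPE counts probe pairs hybridised to RNA in barcoded spots, and a spot is a small area that can hold several cells, so members are areas of tissue rather than neurons. In such sums, fewer cells of a type and less RNA per cell cannot be told apart.

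The midline and intralaminar nuclei lie between the larger sensory and motor relay nuclei of the thalamus and just beneath the habenula. Their glutamatergic neurons, many of which contain the calcium-binding protein calretinin (Calb2), project to prefrontal cortex, striatum, hippocampus and amygdala and are known for roles in arousal, memory and affective behaviour. Gbx2 and Lhx9 are homeodomain transcription factors of thalamic development. Oprm1 encodes the μ-opioid receptor, Slitrk6 a transmembrane protein of neurite growth and synapse formation, and Grid2ip a scaffold protein that binds the delta glutamate receptor.

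The sections held between 34983708 and 90098381 UMIs, and the deepest was MF replicate 1. The member spots of MF replicates 1 and 2 and HF replicates 1 and 2 summed to 5294524, 2947546, 3604528 and 2488688 UMIs. Their median depth was 27890, 15403.5, 19452 and 12882.5 UMIs per spot, against 23212.5, 11868, 8985 and 11756 in the other spots, so that the members of HF replicate 1 were over 2 times as deep as the rest of that section. The 4 arrays shared 2472 spot barcodes out of 4259 in use, since the array layout is common to all slides. HF replicate 2 stood apart from the other sections in transcripts of hypothalamic neurons. Pmch, the precursor of melanin-concentrating hormone, was at 688, 497 and 321 CPM (the UMIs of a gene in the summed spots, scaled by their total to 1000000) over the whole of MF replicate 1, MF replicate 2 and HF replicate 1, and at 0.706 CPM over HF replicate 2. Oxt, encoding oxytocin, was at 638 CPM in HF replicate 2 and between 0.699 and 4.1 CPM elsewhere.

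Position did not enter the rule, and the members were not scattered. In MF replicates 1 and 2 and HF replicates 1 and 2, respectively, 143, 135, 139 and 107 of the 180 members belonged to 1 connected patch. On average 59.5% to 65.1% of the spots that touched a member were members too, whereas members made up at most 5.63% of the kept spots of a section. The median member lay between 8.54 and 9.75 spot spacings from the centre of the medial habenula spots (the 60 spots of each section with the highest score over 8 habenular genes), and the median of the other spots lay between 28.6 and 30.5 spacings away. Relay spots, the 180 with the highest score over 8 genes of the relay nuclei after members were left out, had medians of 13.6 to 16.6 spacings. The patch sat below the habenula and medial to the relay nuclei in each section. HF replicate 2 differed in shape: its second patch held 52 members, against 9 to 11 in the other sections.

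**Figure D1:**
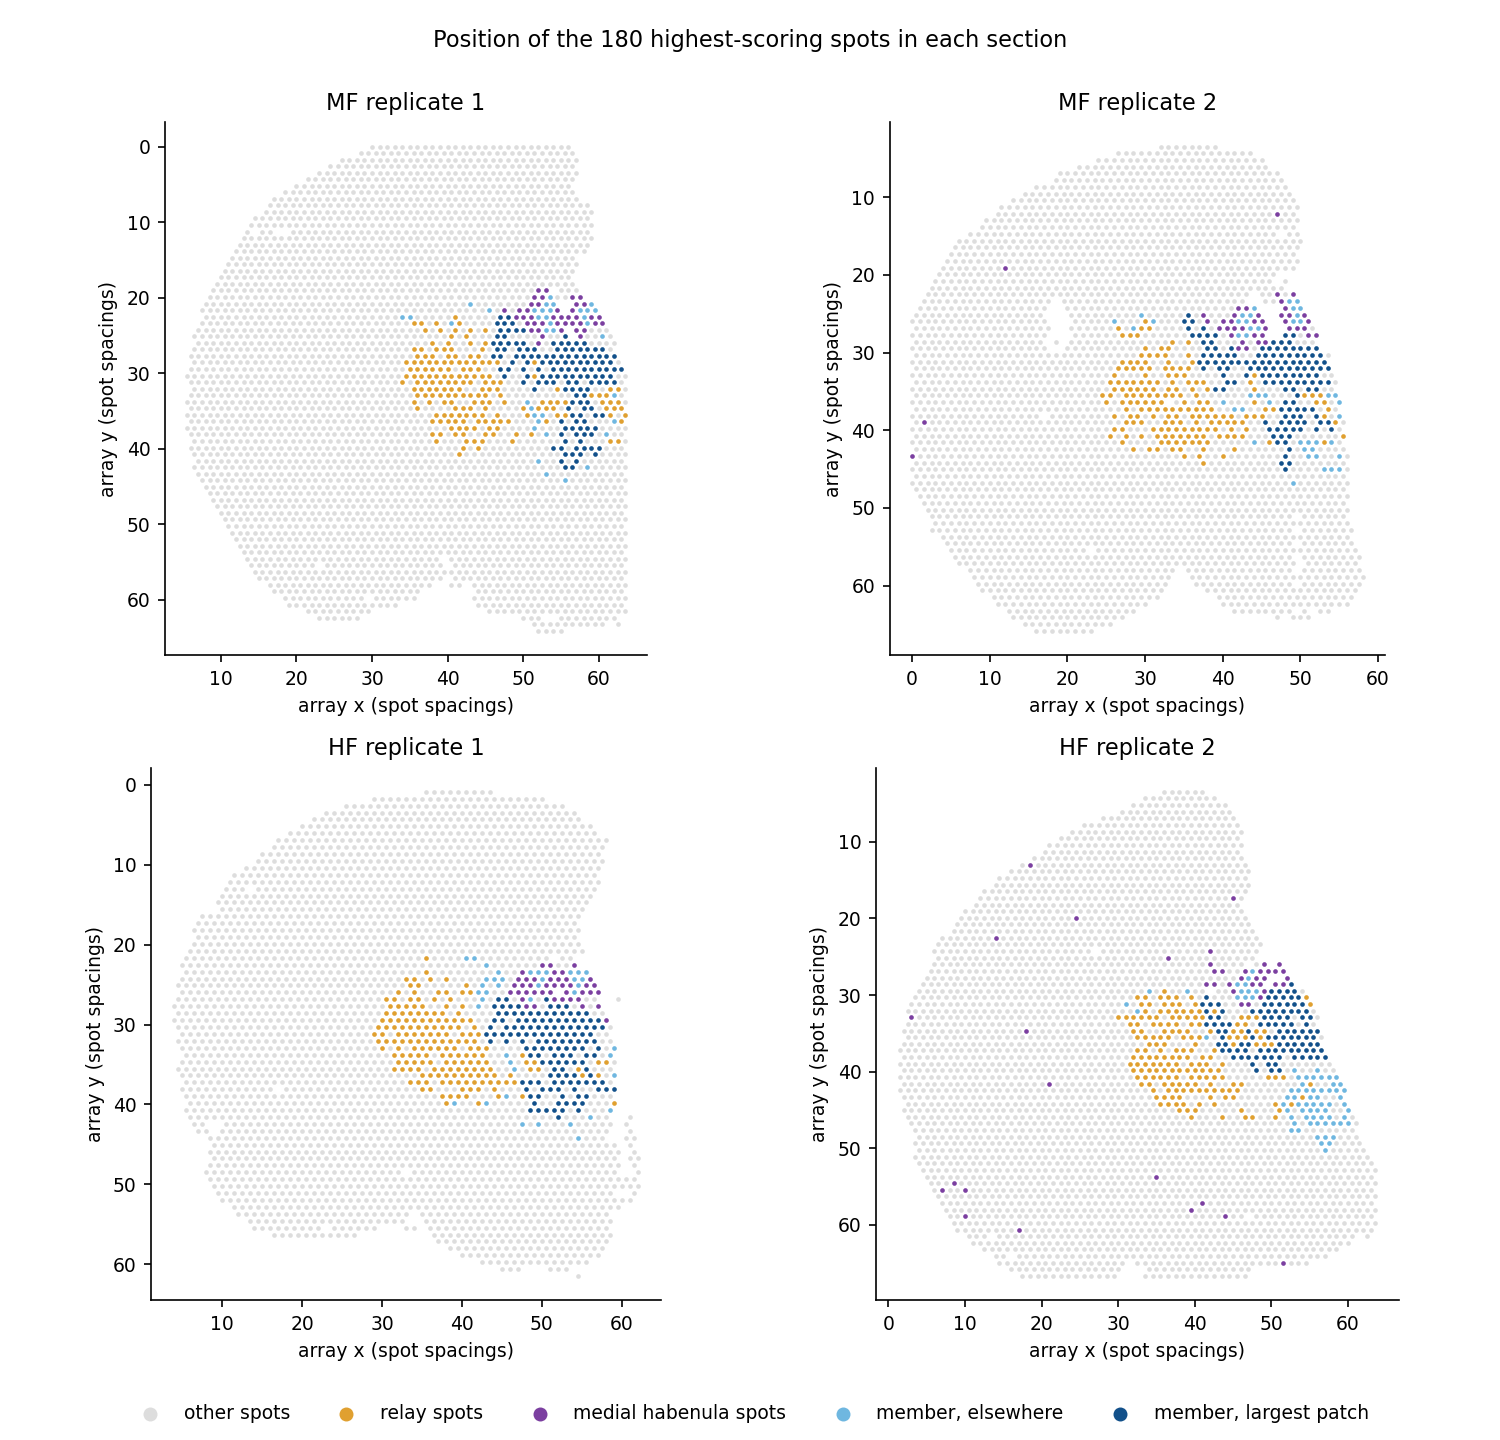
Array position of all kept spots in the 4 sections, in spot spacings on both axes, with members in the largest connected patch (dark blue), other members (light blue), relay spots (orange), medial habenula spots (purple) and all remaining spots (grey). The largest patch held 143, 135, 139 and 107 members and lay beneath the habenula, with relay spots mostly to its side, and in HF replicate 2 the members below it formed a second patch of 52 spots.

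The choice also took in habenular spots. Of the 60 medial habenula spots of each section, 19, 19, 18 and 15 were members. In MF replicate 2 and HF replicate 2 some of the 60 lay scattered away from the habenula. Over those of the 60 that were not members, choroid plexus genes summed to 35958 CPM in HF replicate 2. In the other sections this sum was 8938 to 13149 CPM. Within the largest patch Tac2, the neurokinin B precursor that marks medial habenula neurons, was at 46.3, 53.2, 72.5 and 41.6 CPM, but in the members outside it reached 991, 912, 681 and 305 CPM. The second patch of MF replicates 1 and 2 was habenular by this gene, at 1585 and 1580 CPM, while those of HF replicates 1 and 2 were at 89.4 and 20.5 CPM. That of HF replicate 2 carried Gbx2, a gene of the rule, at 79 CPM. This last patch also held the hypothalamic transcripts Oxt at 928 CPM, Avp at 817 CPM and Otp at 24.9 CPM, against 393, 284 and 13.2 CPM in the largest patch and 637, 467 and 22.3 CPM in the other spots of the section. Gbx2 helped to choose the members, so its level is a description and does not bear on the label of midline thalamus. By Tac2, which did not choose them, the largest patch did not read as medial habenula, and the members outside it were a mixture. Counts of the habenular list are given below with and without the habenular members.

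The members' score was at least 0.893, 0.862, 0.95 and 0.991 in the 4 sections, and the first spot left out stood at 0.893, 0.862, 0.948 and 0.991, so the limit of 180 fell on no gap. The median of the other spots was between 0.197 and 0.226. A UMI of every one of the 6 genes was found in 72.2%, 43.9%, 56.7% and 44.4% of the members and in 3.42%, 0.542%, 1.46% and 0.569% of the other spots of the same section. A share of this kind also depends on how many UMIs a spot holds, and the first section was the deepest.

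Because the 6 genes chose the members, their levels are a description. Calb2 (ENSMUSG00000003657; mm10 chromosome 8, 110137502 to 110168210, minus strand) was at 1499, 1412, 1289 and 1911 CPM in the members and at 178, 186, 226 and 217 CPM in the other spots. The difference of its log2 CPM was 2.91 ± 0.28 (SD, n = 4 sections). Gbx2 (ENSMUSG00000034486; chromosome 1, 89927956 to 89931179, minus strand) was at 75.5, 78.7, 78.8 and 94.8 CPM against 5.92, 5.42, 8.25 and 6.17 CPM, a log2 difference of 3.49 ± 0.28. For both genes each of the 4 member sums lay above all sums of the other spots, and HF replicate 2 was the highest. Lhx9 (ENSMUSG00000019230; chromosome 1, 138825186 to 138848577, minus strand) was at 166, 177, 176 and 237 CPM in the members and 19.2 to 26.5 CPM in the rest.

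Oprm1 (ENSMUSG00000000766; chromosome 10, 6758506 to 7038198, plus strand) was at 275, 321, 347 and 257 CPM in the members, between 4.7 and 5.52 times the level of the other spots. Slitrk6 (ENSMUSG00000045871; chromosome 14, 110748580 to 110755149, minus strand) was at 107, 128, 145 and 166 CPM, between 4.95 and 8.49 times the rest. Grid2ip (ENSMUSG00000010825; chromosome 5, 143357338 to 143392152, plus strand) was at 113, 126, 146 and 147 CPM, between 4.16 and 5.7 times the rest. The 6 genes did not mark the midline alike. Grid2ip was at 98.5 to 125 CPM in relay spots, so that the members held only 1.15 to 1.25 times as much, and for Slitrk6 the ratio was 1.25 to 1.97. Calb2, by contrast, was 6.04 to 9.38 times higher in the members than in relay spots, Oprm1 4.19 to 5.43 times, Lhx9 3.63 to 4.78 times and Gbx2 2.75 to 4.11 times. These ratios include the habenular members. In them Lhx9 was at 371, 448, 451 and 553 CPM, against 134, 149, 152 and 222 CPM in the largest patch. Oprm1 was at 332, 438, 441 and 251 CPM, against 267, 312, 356 and 263 CPM. Calb2 was higher in them in all sections but MF replicate 1, and Gbx2, Slitrk6 and Grid2ip were lower in each section.

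Each gene was then left out of the score in turn and the members were chosen on the other 5. The left-out gene was still higher in the new members in every section, by 1.67 to 3.35 on the log2 scale. Depending on gene and section, 133 to 164 of the new members were also members under the full rule. The genes of the rule were chosen with earlier results of these data known. A higher level of the left-out gene was therefore likely from the start, and these values are a description rather than a test of the rule. Gbx2, scored without itself, was at 58.4, 62.5, 62.5 and 81 CPM in the members and 6.59 to 10.3 CPM elsewhere. Calb2, scored without itself, was at 1180, 1065, 988 and 1470 CPM against 201 to 262 CPM. The deposited Moran's I, which measures how alike neighbouring spots are across a section, ranked Calb2 between 14 and 29 among the features of a section and the other 5 genes between 65 and 255.

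**Figure D2:**
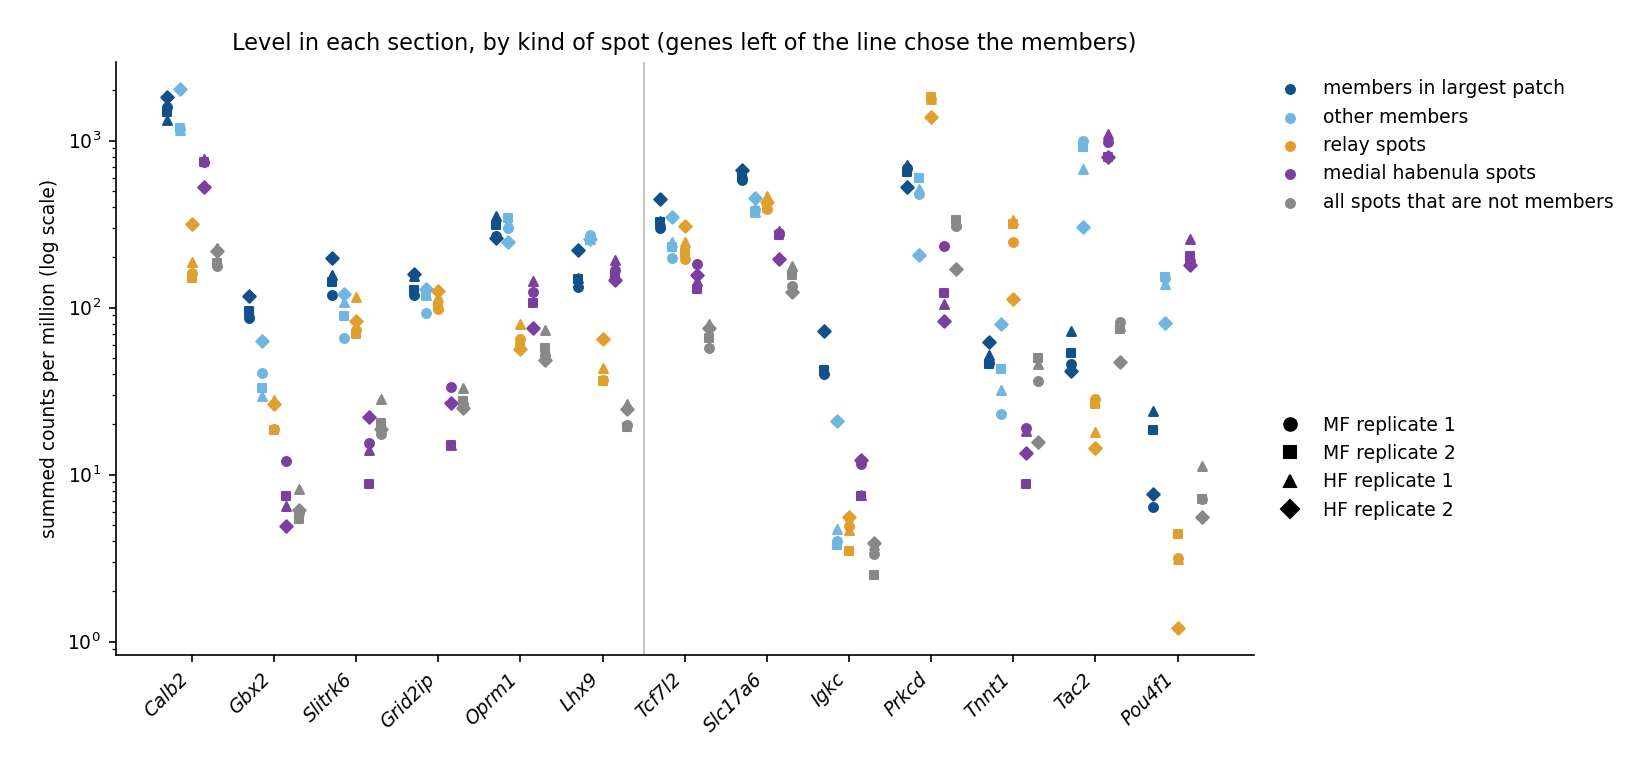
Summed CPM (log scale) of the 6 genes that chose the members (left of the line) and 7 other genes, with 1 symbol per section and colours for the kind of spot. Gbx2 and Igkc were highest in the largest patch, Grid2ip was at nearly the same level in relay spots, Prkcd and Tnnt1 were highest in relay spots, and Tac2 and Pou4f1 were higher in members outside the largest patch than in it.

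Genes of the thalamus at large were also higher in the members, which is described and not tested, since the members were chosen on the same spots. Of 12 such genes, 10 were at least 1.2-fold higher than in the other spots in all 4 sections and none was lower, where 4.63% of all 19465 features were higher and 7.46% lower by that count. The median log2 ratio was 1.79, against -0.03 over all features. Slc17a6, the vesicular glutamate transporter VGLUT2, was at 536, 547, 581 and 578 CPM in the members and 124 to 177 CPM in the rest. Tcf7l2, a transcription factor of Wnt signalling that marks the thalamus and habenula, was at 276, 299.9, 312 and 404 CPM against 57 to 80 CPM. Rora, a nuclear receptor, was 2.03 to 2.65 times higher than in the other spots but only 0.528 to 0.602 times the level of relay spots. Sox2 and Lhx2 were the 2 genes of the list that were not higher, with mean log2 ratios of -0.13 and -0.02.

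A list of 18 further genes described for midline nuclei gave a mixed picture, with 5 higher and 5 lower than in the other spots. Against relay spots 8 were higher and none lower, where 6.45% of all features were higher and 3.17% lower. Calb1, encoding calbindin, was at 386, 419, 363 and 494 CPM in members and 167 to 240.1 CPM in relay spots. Mc3r, a melanocortin receptor, was low throughout, at 9.25, 8.82, 7.21 and 12.5 CPM, but 2.52 to 5.85 times the level of other spots on the scale with 1 CPM added. Within the largest patch Mc3r was at 9.06 to 13.2 CPM. Cck, the cholecystokinin precursor, was at 1054, 1178, 1051 and 919 CPM in members and higher still in relay spots, at 1083 to 1447 CPM. Penk, the enkephalin precursor, went the other way and was at 46.7, 45.1, 22.7 and 35.8 CPM, against 102 to 173 CPM in the rest of the section.

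Of the lists for adjoining territories, 5 of 8 relay genes and 3 of 4 lateral habenula genes were higher than in the other spots and 1 relay gene was lower. Over all features, 4.63% were higher and 7.46% lower than in the other spots. Markers of GABAergic and telencephalic neurons were mostly lower. All but 1 of 9 genes of the reticular nucleus, 6 of 7 genes of the zona incerta and other GABAergic neurons, 6 of 8 cortical and 6 of 6 striatal genes were lower than in the other spots in every section. Gad2, a GABA-synthesising enzyme, was at 92.4, 86.9, 81.3 and 100.1 CPM against 262 to 344 CPM. Among 12 hypothalamic genes, 6 were lower than in the other spots and 0 higher. In HF replicate 2 their sum was nearly the same in both, at 1236 CPM in the members and 1249 CPM in the other spots. Of 15 myelin genes, 12 were lower than in the other spots and all 15 were lower than in relay spots, where 3.17% of all features were lower than in relay spots. Mbp, encoding myelin basic protein, was at 6793, 6693, 6546 and 4869 CPM in the members, 8059 to 9859.8 CPM in the rest and 10037 to 11944 CPM in relay spots. The list of 10 astrocyte genes had 2 higher and 3 lower, and none of 7 vessel genes differed by that count.

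Among all features with a mean of at least 20 CPM in the members, Igkc, the constant region of the immunoglobulin kappa light chain, and Snx31, a sorting nexin, stood highest against the other spots outside the 6 genes. Igkc (ENSMUSG00000076609; chromosome 6, 70726435 to 70726966, plus strand) was at 31.4, 32.2, 33.6 and 50.6 CPM in the members and 3.33, 2.51, 3.79 and 3.9 CPM in the rest, a log2 ratio of 3.10 ± 0.26 (SD, n = 4). Its transcripts were concentrated in the largest patch, at 39.8, 42.6, 42.4 and 72 CPM, and in the members outside it they were at 3.99, 3.81, 4.73 and 21.1 CPM. In relay spots they were at 3.49 to 5.61 CPM. Snx31 was at 25.5, 25.8, 20.3 and 32.1 CPM against 1.65 to 3.32 CPM. The same pattern, high in the patch and low in relay spots, was seen for Nmbr, the neuromedin B receptor, at 29.5, 32.4, 42.4 and 31.2 CPM in the patch and 2.54 to 5.81 CPM in relay spots, and for Maob, monoamine oxidase B, at 114, 97.2, 111 and 98.3 CPM in the patch and 22.5 to 29.1 CPM in relay spots. Fbln1, an extracellular matrix protein, Sntb1, a syntrophin, and Prkch, a protein kinase C, had mean log2 ratios to the other spots of 2.17, 2.02 and 1.81. Shox2, a homeodomain factor, was at 48.2, 41.4, 49.1 and 51.4 CPM in the members and differed from relay spots by only 0.06 ± 0.11 on the log2 scale.

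Others among the 15 highest genes followed the habenular members. Gng8, Gpr151, Pou4f1, Chrnb4 and Gm5741 had mean log2 ratios of 2.49, 2.76, 2.45, 2.25 and 2.25 with all members. Without the habenular members, an alternative added after the data were seen, these were 0.07, 1.09, 0.32, -0.03 and 0.18, so that Chrnb4, a nicotinic receptor subunit, was near 0. Gng8, Pou4f1 and Chrnb4 were among the genes that chose the habenular spots. Igkc, Snx31 and Nmbr were at 3.22, 3.21 and 2.36 in that alternative. The habenular list as a whole had 7 of 8 genes higher than in the other spots with all members and none of 8 without them, where 4.61% of all features were higher and 8.98% lower. Against relay spots 7 of 8 were higher even without them, where 4.94% of all features were higher and 3% lower. The thalamic list had 10 of 12 genes higher than in the other spots in both cases. The lowest genes against the other spots were Ccn3, Npy, Itpka, Gda, Penk, Icam5, Ngef and Gad2, with mean log2 ratios between -2.19 and -1.67. Several of these are known from telencephalic neurons, among them Itpka, a kinase of dendritic spines, and Icam5, an adhesion molecule of forebrain dendrites.

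The relay spots gave the nearest comparison. Outside the genes of the rule, those that stood highest in the members, habenular members included, were Gpr151, Gm5741, Pou4f1, Chrnb4, Tac2, Gng8, Igkc, Chrna3, Nwd2 and Fibcd1, with mean log2 ratios of 2.44 for Fibcd1 to 3.94 for Gpr151, and 6 of these (Tac2, Nwd2, Gng8, Chrna3, Chrnb4 and Pou4f1) were genes of the habenular list. Among the genes that stood lowest in the members against relay spots were Scn4b, Rab37, Plxdc1, Car4, Prkcd, Kcnab3, Nefh, Cnih3 and Cplx1. Prkcd, a protein kinase C and a usual marker of relay nuclei, was at 636, 637, 667 and 393 CPM in members and 1768, 1818, 1789.7 and 1378 CPM in relay spots, and like Scn4b and Cplx1 it was among the genes that chose the relay spots. Scn4b, a sodium channel beta subunit, was at 42.1, 31.2, 25.2 and 20.5 CPM against 133 to 179.8 CPM. Rab37, a small GTPase that chose neither set, was at 74.4, 80.7, 82.7 and 52.2 CPM against 236 to 265 CPM, and Nefh, the heavy neurofilament chain of large axons, was lower by 1.34 ± 0.11 on the log2 scale. Of 38 glutamate and GABA receptor genes, 10 were higher and 6 lower than in relay spots, where 6.45% of all features were higher and 3.17% lower. Gria1, an AMPA receptor subunit, was higher by 0.93 ± 0.12 and Gabra4, a GABA-A receptor subunit, lower by 0.80 ± 0.11 on the log2 scale. Of 32 neuropeptide receptors, 13 were higher than in relay spots and 1 was lower, against the same shares of all features. The 13 include Oprm1, which helped to choose the members.

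Rings of spots drawn outward from the largest patch showed how steeply each gene fell off. The first ring is depressed for the genes of the rule, since spots with high values there had joined the patch. Gbx2 went from 98.3 CPM in the patch (mean of 4 sections) to 46.7, 31.5 and 25.6 CPM in the first 3 rings and 8.45 CPM in the eighth. Igkc, which did not choose the members, went from 49.2 ± 15.3 CPM (SD, n = 4) to 15 ± 8.53 CPM in the first ring and 6.64 ± 1.74 CPM in the second. Slc17a6 declined gradually, from 626 CPM to 497, 433 and 374 CPM, as did Tcf7l2, from 351 CPM to 284, 238 and 233 CPM. Lhx9 had a dip and a second rise, with 86.2 CPM in the first ring and 124 CPM in the third. Its mean in the habenular spots that were not members was 166 CPM. Prkcd was higher in the first ring, at 819 CPM, than in the patch, at 644 CPM.

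**Figure D3:**
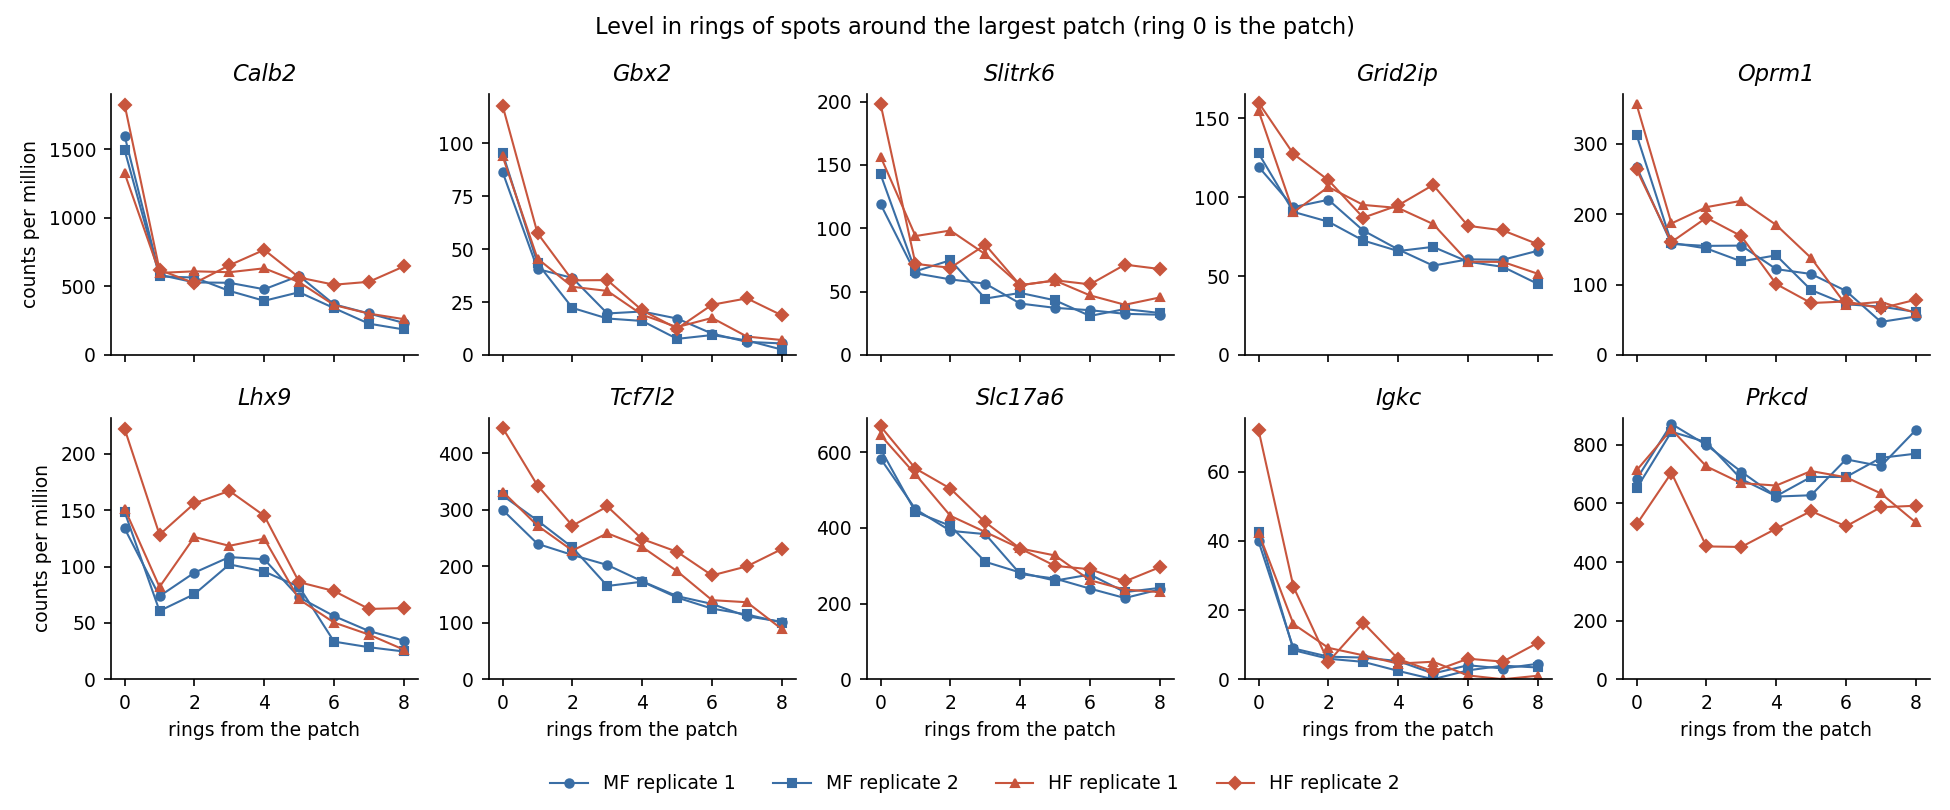
CPM in the largest patch (ring 0) and in 8 successive rings of spots around it, 1 line per section, blue for MF and red for HF. Gbx2, Oprm1 and Igkc dropped within the first rings, Slc17a6 and Tcf7l2 declined gradually, Lhx9 had a second maximum near ring 3, and Prkcd was higher in ring 1 than in the patch.

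The study asked how excess maternal FA altered the offspring brain, and the HF and MF groups were compared on the counts of the 180 members summed per section. With the quasi-likelihood test of edgeR, 12159 genes were tested and 1 was called at an adjusted p under 0.05 and at least 1.2-fold (0.00822% of those tested). It was Egr1, an immediate-early transcription factor induced by neuronal activity. Egr1 (ENSMUSG00000038418; chromosome 18, 34859823 to 34864984, plus strand) was at 21.5 and 30.5 CPM in the MF members and 71.9 and 112 CPM in the HF members, so that the groups did not overlap. It rose by 1.84 on the log2 scale (SE 0.22, adjusted p = 0.0169). Egr1 was called under each of the 14 alternatives, with log2 fold changes of 1.52 to 2.17 and adjusted p of 1.4e-28 to 0.0292. In the other spots Egr1 was at 50.8 and 60 CPM in MF and 166 and 354 CPM in HF, in relay spots at 34.4, 40.3, 94.7 and 150.3 CPM, and the difference between the members' and the other spots' diet effects was -0.31 (SE 0.17, adjusted p = 1 by edgeR).

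The count of called genes depended on single sections. It was 5 without MF replicate 1, 7 without MF replicate 2, 322 without HF replicate 1 and 203 without HF replicate 2, with Egr1 among them each time. The HF sections were less alike than the MF sections. Over 8278 features, the SD of the log2 difference between members of the HF pair was 0.306, with 22 features over 2-fold apart, and for the MF pair it was 0.166 with none. Neuropeptide transcripts of the hypothalamus moved with HF replicate 2 within the members as well. Avp, the vasopressin precursor, was at 2.08, 0.679, 7.77 and 500.7 CPM in the members and at 467 CPM in the other spots of HF replicate 2. Oxt was at 0, 0.679, 0.832 and 647 CPM, and Pmch at 284, 153, 71.9 and 1.21 CPM. Their part in the comparison of diets was not tested, and with 2 sections a group, diet and the level at which a section was taken cannot be told apart.

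Next to Egr1 came genes that missed the threshold, given in each direction by the smallest p among those whose sections did not overlap. Such separation is common here, since 17.4% of the tested genes had both HF sections above both MF sections and 16.8% had both below. Mt2, a metallothionein, was at 552 and 459 CPM in MF and 305 and 299.8 CPM in HF (log2 fold change -0.74, SE 0.11, edgeR adjusted p = 0.0813). DESeq2 called it, and over the 14 alternatives its adjusted p was between 6.2e-14 and 1. Btaf1, a regulator of TATA-binding protein, was at 68.8 and 66.8 CPM in MF and 37.7 and 35.4 CPM in HF (log2 fold change -0.89, SE 0.14). Ide, the insulin-degrading enzyme, was at 75.9 and 73.6 CPM in MF and 42.2 and 43.8 CPM in HF (log2 fold change -0.80, SE 0.13). The edgeR adjusted p was 0.0813 for Btaf1 and 0.1 for Ide. Both genes had similar values in the other spots, where Btaf1 was at 71.3, 70.7, 37.3 and 37.8 CPM and Ide at 80, 76.4, 46.7 and 55.8 CPM.

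Apod, a lipid-binding apolipoprotein, and Trf, transferrin, both known from oligodendrocytes, had log2 fold changes of -0.59 and -0.51 with edgeR adjusted p of 0.375 and 0.502. In the other direction stood Etnppl, an astrocytic enzyme of phosphoethanolamine breakdown, at 62.5, 60.4, 90.4 and 94.8 CPM, Cxcl12, a chemokine, at 44.2, 41.4, 68.5 and 64.3 CPM, and Nhsl1, an actin regulator, at 46.7, 44.4, 71.3 and 63.9 CPM. Their log2 fold changes were 0.59, 0.63 and 0.57, with edgeR adjusted p of 0.502, 0.589 and 0.815. Avp, also among the genes in this direction, had a log2 fold change of 7.27 that went to 2.28 without HF replicate 2.

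**Figure D4:**
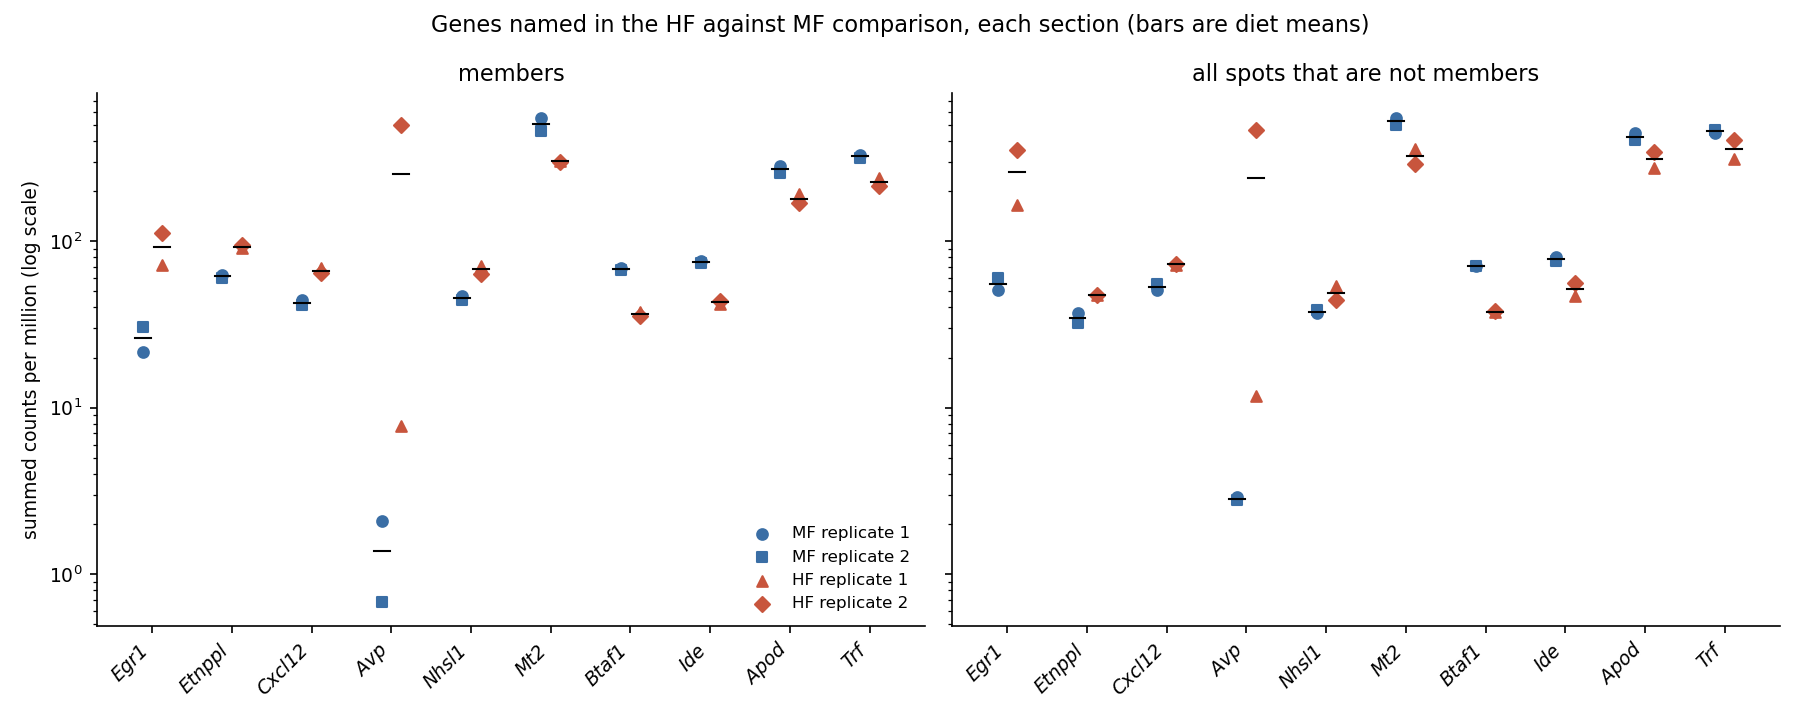
Summed CPM (log scale) of the called gene Egr1 and the 9 genes with the next smallest p among those with non-overlapping sections, in members (left) and in all other spots (right), 1 symbol per section with bars at the diet means. Egr1 was 71.9 and 112 CPM in HF members against 21.5 and 30.5 CPM in MF members and showed the same order in the other spots, and Avp was high in HF replicate 2 alone.

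By gene group, no list held a called gene other than Egr1. Of the 22 immediate-early genes 21 were tested, 17 had a positive and 4 a negative log2 fold change, and the median was 0.29 against 0 over all features tested, of which 50.9% were positive. Jund was at 523 and 580 CPM in MF and 537 and 602 CPM in HF. Fos was at 9.07 and 8.82 CPM in MF and 17.5 and 14.5 CPM in HF (log2 fold change 0.85, SE 0.24, edgeR adjusted p = 0.88). For Arc, Junb and Nr4a1, HF replicate 1 was the highest of the 4 sections and HF replicate 2 lay among or below the MF sections, as with Arc at 30.6, 32.9, 51.3 and 28.1 CPM. The diet effect of this list in the members, less that in the other spots, was below 0 for 18 of 22 genes, with a median of -0.23 and none called.

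All 15 myelin genes had a negative log2 fold change, with a median of -0.29, where 49.1% of all genes tested were negative, and in 13 of them both HF sections were below both MF sections, which are among the 34.2% of genes without overlap in either direction. None was called by edgeR or DESeq2, and 10 had an unadjusted edgeR p under 0.05, as had 5.07% of all genes. Mobp, a myelin-associated basic protein, was at 2416 and 2320.2 CPM in MF members and 2076 and 1811 CPM in HF members. The list summed to 20743, 19305, 18252 and 14637 CPM in the members, and to 27084, 28572, 22598 and 24375 CPM in the other spots. The lowest sum among members was that of HF replicate 2, and the lowest among other spots that of HF replicate 1. Against the other spots, the diet effect of these genes in the members had a median difference of -0.03, with 10 of 15 negative and none called. Against relay spots it was -0.15, with 14 of 15 negative, 10 at an unadjusted edgeR p under 0.05 (5.42% of all genes) and none called. The list summed to 30412, 34112, 29102 and 29904 CPM in relay spots. Relative to these sums, the members of HF replicate 1 lay between those of the MF sections, and only those of HF replicate 2 lay below both. The part of HF replicate 2 in this difference was not tested.

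The 6 genes of the rule, given as a description since they chose the members, had positive log2 fold changes between 0.03 for Oprm1 and 0.41 for Slitrk6. Calb2 was highest in HF replicate 2 and lowest in HF replicate 1, and its log2 fold change of 0.14 turned to -0.18 without HF replicate 2. Of 12 general thalamic genes 11 were positive with a median of 0.15, and of the further midline genes 8 of 13 tested were negative with a median of -0.24. Of 8 habenular genes 6 were negative with a median of -0.24, which was 0.43 without the habenular members. The members of HF replicate 2 held 15 of its 60 habenular spots, against 18 or 19 in the other sections.

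The genes of folate uptake and one-carbon metabolism held no called gene among the 25 tested of 31. Their median log2 fold change was -0.03, with 11 positive and 14 negative. Mat2b and Mat2a, the regulatory and catalytic subunits of S-adenosylmethionine synthetase, were at 144, 143, 125 and 117 CPM and at 83.1, 76.3, 78.2 and 73.9 CPM. Gart, an enzyme of purine synthesis, was at 39.1, 45.8, 46.9 and 34.6 CPM. Slc19a1, the reduced folate carrier, was at 32.5, 30.2, 34.1 and 28.5 CPM, so that the groups overlapped. Clock genes had 12 of 16 positive with a median of 0.16. Synaptic adhesion genes (40 tested), glutamate and GABA receptors (38) and neuropeptide receptors (24 of 32) had medians of 0.02, 0 and 0. Gabbr1, a GABA-B receptor subunit, was at 1037, 1079.5, 1129 and 919.8 CPM. A p that misses the threshold does not show that these genes were equal.

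**Figure D5:**
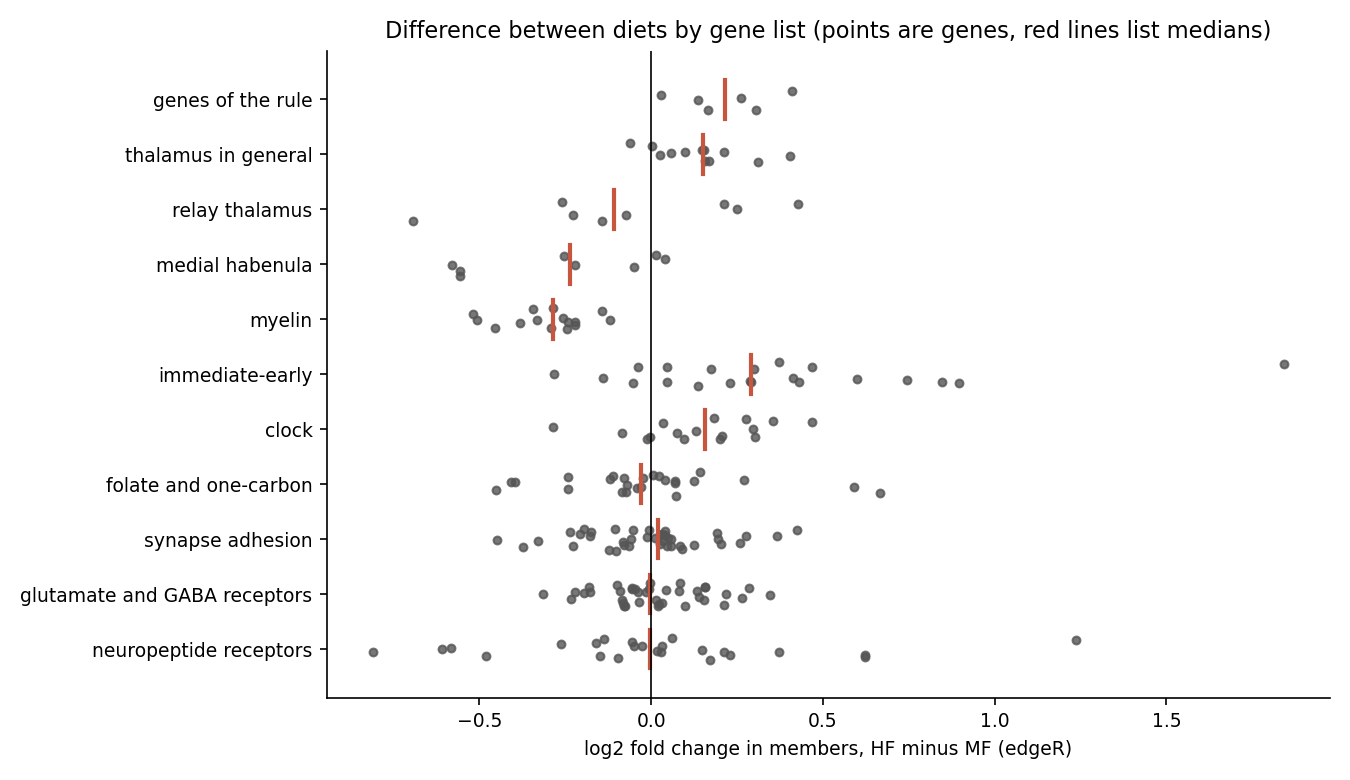
Log2 fold change between HF and MF members from edgeR (horizontal axis, log2 units) for each tested gene of 11 lists, with list medians as red lines. The myelin genes all lay below 0 with a median of -0.29, the immediate-early genes had a median of 0.29 with Egr1 at 1.84, and the folate, synaptic and receptor lists were centred near 0.

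Whether the diets differed by another amount in the members than elsewhere was tested with section as a block. Against all other spots, none of 14510 genes was called by edgeR (0%), none by DESeq2, and 477 had an unadjusted p under 0.05 by edgeR (3.29%) and 48 by DESeq2. The count was between 3 and 182 when 1 section was left out, with 3 without MF replicate 1, 4 without MF replicate 2, 182 without HF replicate 1 and 17 without HF replicate 2. Against relay spots, 15 of 12287 genes were called by edgeR (0.122%) after Benjamini-Hochberg adjustment. Calb2 and Tnnt1 are among the 15 but took part in choosing the spots, so they are a description, and the adjusted p of the other 13 ran from 9.32e-08 for 6330403K07Rik to 0.048 for Rab15. In 10 of them (0.0814%) the diet effect in members was higher and in 5 (0.0407%) lower. DESeq2 called none, with 26 genes at an unadjusted p under 0.05, and without MF replicate 2 edgeR called none.

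Of these 15, 6330403K07Rik, which has no established role, was at 258, 238, 220.3 and 294 CPM in members and 164, 160.1, 94.7 and 104 CPM in relay spots, a difference in diet effects of 0.73 (SE 0.11). It was called in 9 of 11 alternatives, where the adjusted p ran from 1.65e-09 by edgeR without HF replicate 1 to 0.966 by DESeq2. Hap1, the huntingtin-associated protein, was at 299, 296, 241 and 362 CPM in members and 175, 188, 103 and 131 CPM in relay spots. Ahi1, a ciliary protein that binds Hap1, was at 224, 192, 143 and 298 CPM in members and 179, 155, 84.6 and 140.3 CPM in relay spots. In these 3 genes the relay spots of HF lay below those of MF, while the members of the groups overlapped. Hpcal4, a neuronal calcium sensor, Doc2a, a calcium sensor of vesicle release, Epha5, an ephrin receptor, Plxna4, a semaphorin receptor, Rab15, an endosomal GTPase, and Itih3, a hyaluronan-associated protein, differed in the same direction by 0.42 to 0.93. Of these, Epha5 was at 0.42 without HF replicate 2 and Plxna4 at 0.16 after thinning, and each passed the threshold in 2 of 11 alternatives.

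Cbln2, a synaptic organiser of the cerebellin family, went the other way, at 76.7, 70.9, 71.9 and 52.2 CPM in members and 17.6, 15.2, 19.9 and 48.1 CPM in relay spots, a difference of -1.24 (SE 0.20). Its shift lay mainly in HF replicate 2, and the difference was -0.30 without that section. The relay spots of HF replicate 2 also held less Tnnt1, at 112 CPM against 248 to 334 CPM, and more Pvalb, at 265 CPM against 65.1 to 124 CPM, so that the differences for these called genes, 0.71 and -0.66, had the opposite sign without HF replicate 2, at -0.13 and 0.11. The difference for Calb2 was -0.55. Syt9, a synaptotagmin, and St6galnac5, a sialyltransferase, completed the list with -0.43 and -0.60, and were at -0.26 and -0.26 without HF replicate 2. They passed the threshold in 2 and 1 of 11 alternatives. Without the habenular members 4 genes were called, which were Calb2, 6330403K07Rik, Ahi1 and Hap1. Calb2 helped to choose the members, so its value is a description here too.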

How the data were processed

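Male brain sections, 2 per diet, were profiled on Visium-FFPE arrays. The authors aligned probe reads to mm10 with Space Ranger, and Seurat was named in their processing notes; the deposited files give raw UMI counts of 19465 features per spot under tissue, spot positions and, per the file headers, Moran's I as a score of spatial autocorrelation. P-value and image-scale columns were not used. Gene positions come from GENCODE vM21 (19451 features matched by identifier).

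Spots under 500 UMIs or 250 genes were removed, and the 180 highest scores per section were members. Members, gene lists and tests were chosen with earlier results of these data known. No doublet caller was run, since spots are areas, and the single-spot Wilcoxon test of the study was not used because spots of 1 section share an animal. Between kinds of spots, CPM of summed counts were compared as log2 ratios with 1 CPM added, without a test. Diets were compared with edgeR 4.0.16 (R 4.3.3; TMM, filterByExpr, quasi-likelihood test, Benjamini-Hochberg adjusted p under 0.05 and at least 1.2-fold), and the differences of diet effects with section as a block. P-values of the diet test measure the spread between 4 sections. Those of the differences of diet effects measure how the ratio between kinds of spots varied over the same sections. Methods were tested on simulated data.

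Named genes were the 6 of the rule, the 15 highest and 8 lowest against other spots and 10 each way against relay spots (at least 20 CPM, 1 sign in 4 sections), every called gene, the 5 smallest p in each direction among genes with separate sections, and, per list, called or most abundant genes; Fos, Arc, Junb, Nr4a1, Slc19a1, Oxt, Pmch, Mc3r, Penk, Sox2, Lhx2, Gria1 and Gabra4 were chosen after their values were seen. A few genes named by this rule are left out here. Alternatives were DESeq2 1.42.0, library size alone, no filter, 120 or 240 spots, thinning to 5000 UMIs, the largest patch, a replicate block, each section left out, and, added after the data were seen, a crossed block and members without habenular spots. The diet test had no replicate block.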

Additional observations from a re-analysis of the deposited data

Results flagged for a closer look

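The difference between diets was not the same in members as in relay spots for 15 genes, by the edgeR test of the interaction. The differences in log2 diet effect, members less relay spots, were -0.55 for Calb2, 0.73 for 6330403K07Rik, -1.24 for Cbln2, 0.62 for Hap1, 0.62 for Ahi1, 0.71 for Tnnt1, 0.45 for Hpcal4, -0.66 for Pvalb, 0.59 for Itih3, 0.93 for Doc2a, 0.64 for Epha5, -0.43 for Syt9, -0.60 for St6galnac5, 0.62 for Plxna4 and 0.42 for Rab15. Calb2 and Tnnt1 helped to choose the spots, and their values are a description. DESeq2 called none of the 15, and 4 of them were also called without HF replicate 2.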

How the results depend on the processing

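For HF against MF in members, 1 gene was called; DESeq2 called 2, no filter on low counts 23, thinning to 5000 UMIs 4, the largest patch 3, and 5 to 322 were called when 1 section was left out. The replicate block by section number called 11 and the crossed pairing 5. Same-numbered sections deviated with a correlation of -0.1. With 2 sections per diet this single value cannot show whether the numbers mark a shared batch. The labels do not say that they do, so the numbers were not taken to pair the samples. Library size alone, 120 or 240 spots and members without habenular spots gave 1 each, and Egr1 was among the calls in all 14 alternatives. For diet effects against other spots, 0 genes were called, 12 without the filter and 3 to 182 with 1 section left out. Against relay spots, 15 were called, 0 by DESeq2, 5 without the filter, 8 with 120 spots, 3 after thinning, 4 without habenular members, and 0 to 91 with 1 section left out. The difference for Tnnt1 ran from -0.13 (without HF replicate 2) to 1.98 (without HF replicate 1), and that for Pvalb from 0.11 to -1.13; the cause was not tested. With 1 section left out, the lone section of a diet is assumed to vary like the others.

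Among named genes against other spots, 55 of 180 alternative values moved by more than the SD over sections. After thinning, the largest patch held a mean of 49.3% of members against 72.8%, and with 240 spots 87.6%. Members chosen after thinning shared 115 to 136 of 180 with those reported, and the median member held 1 or 2 UMIs of Gbx2. The median diet difference of the habenular list, -0.24, was 0.43 without habenular members and 0.36 in the largest patch.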
